A study of Rattus norvegicus with 30 samples.

Results

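Hearts of chow-fed rats that had been perfused outside the body with a mannitol buffer were compared with non-perfused hearts of chow-fed rats. The comparison used the 10 arrays that the labels name as one or the other, of 30 in the series: 5 mannitol-perfused and 5 non-perfused hearts, with 1 array for each heart. The labels call the hearts of a group biological replicates. All came from male Sprague Dawley rats aged 16 to 18 weeks, for which no allele is named, and the tissue was the left ventricle. Every rat was anesthetized with chloral hydrate and every heart was put into ice-cold Krebs-Henseleit buffer, a salt solution of the kind used to keep organs alive. The mannitol-perfused hearts then worked outside the body for 60 min, with oxygen and at body temperature, against an afterload of 100 cm H2O and at a filling pressure of 15 cm H2O. Their buffer held 25 mmol/L mannitol, a sugar alcohol that served as the osmotic control for glucose. It held no glucose, and its fuels were propionate at 2 mmol/L, acetoacetate at 1 mmol/L and hydroxybutyrate at 10 mmol/L, with calcium at 2.5 mmol/L. The non-perfused hearts were dissected and frozen at once.

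The question put by the design is how transcript levels differ after cold arrest and reperfusion. An excised working heart has no nerve supply, no circulating hormones and no blood, so these differences between the groups cannot be told apart from one another or from the work load or the buffer. Both groups passed through ice-cold buffer, and the labels do not give for how long. Cells answer many stimuli by transcribing immediate-early genes within minutes, because the transcription factors that switch them on are already present in the cell. Serum response factor, which binds a sequence called the CArG box, and NF-kappaB, which is released from inhibitors in the cytoplasm, are textbook examples. The products include further transcription factors, phosphatases that switch off MAP kinases, proteins that destroy short-lived messages, chemokines and cytokines. In heart muscle the same genes are known to respond to stretch, to hormones and to injury.

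Signals are given as a percentage of the signal at the 75th percentile of the same array, so that 100 is a bright probe of that array. A change is the difference of group means on the log2 scale, mannitol-perfused minus non-perfused, with its standard error (SE) from the limma fit of all 6 groups of the series (n = 5 arrays in each). The words rose and fell are kept for genes whose limma p, adjusted by the Benjamini-Hochberg method over all 18333 genes tested, was under 0.05. The number of arrays limits the precision. The share of probes well above background was 69.1 ± 6.24% in the mannitol-perfused and 67.9 ± 11.1% in the non-perfused group (SD, n = 5 each, two-sided exact permutation p = 0.841). Non-perfused replicate 2 stood apart with 48.8% of its probes above background and a standard deviation of its negative control spots of 13.9 intensity units, against 2.29 to 3.68 units on the other 9 arrays. Both groups lay in row 1 of their slides, and 4 slides carried arrays of both. The mannitol-perfused arrays lay in slide columns 3 and 4 and the non-perfused arrays in columns 1 and 2, so slide column and group cannot be told apart.

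Many transcripts of the immediate-early response, of inflammatory signalling and of growth arrest were higher in mannitol-perfused hearts, and transcripts of red blood cells were lower. The nuclear receptor Nr4a3, the stress-induced transcription factor Atf3 and the AP-1 subunit Fos showed the 3 largest rises, and globin genes the largest falls. In all, 1556 genes (8.49% of those tested) passed the test, 886 upward (4.83%) and 670 downward (3.65%). At least 2-fold, 240 genes rose and 78 fell, and at least 4-fold 77 rose and 22 fell, while the numbers were alike past 16-fold, with 10 rises and 10 falls. Most genes moved little, with a median change of -0.01 over all genes tested and a change between -0.5 and 0.5 for 90.5% of them. The arrays of the groups did not overlap for 1228 of the 1556 genes, against 1743 (9.51%) of all genes tested. Within all 4 slides that carried both groups the sign was the same for 1513 of the called genes (97.2%), against 30.5% of all genes tested. Both figures were bound to be higher among the called genes, which were picked by their difference on these same arrays. With each of the 10 arrays left out in turn, 1002 of the 1556 genes passed the test every time, 640 that rose and 362 that fell. The values that the authors deposited gave 360 genes, 311 upward and 49 downward, so that rises made up 86.4% of the calls there, against 56.9% here.

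**Figure D1:**
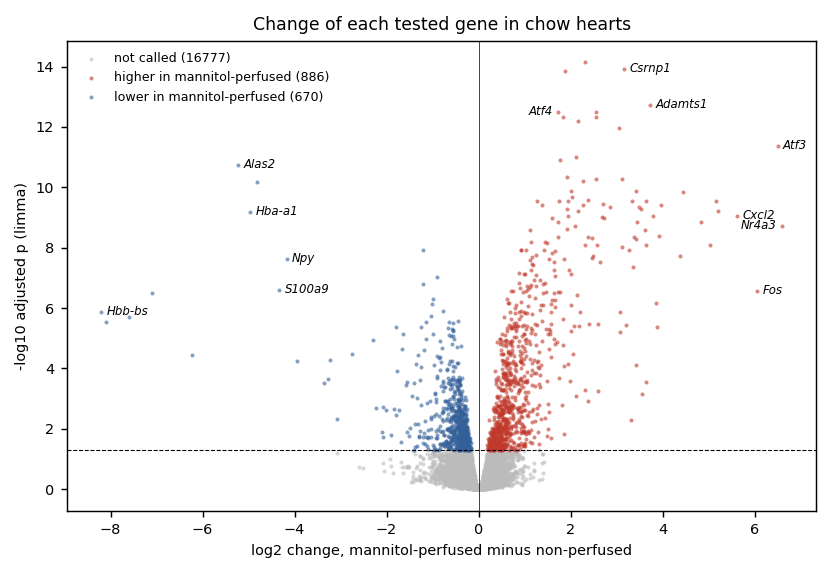
Each point is 1 of the 18333 genes tested, with its log2 change (mannitol-perfused minus non-perfused) on the horizontal axis and -log10 of its limma adjusted p on the vertical axis. The dashed line marks an adjusted p of 0.05. The 886 genes that rose reach log2 changes above 6, and the globin genes and Alas2 lie at the far left, between -8.21 and -4.97.

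Immediate-early transcription factors made up the list with the largest share of rises. Lists and members were chosen with earlier results of these data known, so this rank is not independent evidence. Of 38 members 37 were tested, 31 rose and none fell, with a median change of 1.94. Atf3, which represses and activates genes in stressed cells, had signals of 8416, 8868, 5267, 9776 and 3476 in mannitol-perfused hearts, against 57.6, 55.7, 212, 47.9 and 67.3 in non-perfused hearts. Its change was 6.501 (SE 0.40, 90.6-fold, adjusted p = 4.22e-12). Fos, which pairs with Jun proteins to form AP-1, read 844, 871, 807, 1250 and 388 in mannitol-perfused hearts, against 10.2, 2.37, 96.9, 6.54 and 14.6 in non-perfused hearts, 4 of which were above background. The change of Fos was 6.05 (SE 0.67, 66.4-fold). For both genes the lowest perfused heart was above every non-perfused heart, and non-perfused replicate 3 was the highest of its group.

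The serum- and stretch-induced zinc finger genes of the Egr family differed among themselves. Egr1 had 1830, 2141, 1514, 1527 and 949 in mannitol-perfused hearts, against 54.3, 20.1, 188, 35.8 and 62.7 in non-perfused hearts, a change of 4.83 (SE 0.40, 28.5-fold). Egr2 had 90.2, 85.6, 107, 133 and 62.6 in mannitol-perfused hearts, against 4.38, 2.95, 16.9, 2.56 and 3.09 in non-perfused hearts, 3 of them above background, a change of 4.38 (SE 0.42, 20.9-fold). Non-perfused replicate 3 was again the highest of its group for each. Their relative Egr3, which was looked up after its values were seen, had a change of 0.26 (SE 0.27, adjusted p = 0.688), and its signals of 3.43 to 6.87 in mannitol-perfused hearts overlapped those of 3.46 to 4.49 in non-perfused hearts.

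The orphan nuclear receptors Nr4a1, Nr4a2 and Nr4a3, which act without a known hormone, all rose. Nr4a3 read 394, 282, 178, 510 and 158 in mannitol-perfused hearts, against 3.401, 2.66, 3.27, 1.07 and 5.77 in non-perfused hearts, of which 3 were above background. This was the largest rise of a named gene, 6.60 (SE 0.56, 97.3-fold). Nr4a1 read 5793, 5220, 4570, 6641 and 3712 in mannitol-perfused hearts, against 90.8, 88.2, 544, 80.03 and 142 in non-perfused hearts, a change of 5.21 (SE 0.41, 37.0-fold). The change of Nr4a2 was 3.97 (SE 0.31, 15.7-fold), and a second probe for it gave 4.14.

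Smaller rises of this class had less spread. Csrnp1, a nuclear protein of the AXUD1 family, read 300 to 467 in mannitol-perfused hearts and 39.7 to 52.1 in non-perfused hearts, a change of 3.16 (SE 0.14, adjusted p = 1.22e-14). Its second probe gave 1.57. The growth regulator Myc rose by 3.12 (SE 0.22), the immediate-early gene Ier5 by 2.11 (SE 0.13) and the Krüppel-like factor Klf6 by 1.78 (SE 0.11). Not every AP-1 subunit moved: Fosb, chosen after its values were seen, had 171 to 322 in mannitol-perfused hearts and 116 to 261 in non-perfused hearts, a change of 0.16 (SE 0.26, adjusted p = 0.825). In this list 30 of the 31 rises passed the test without any 1 of the arrays, and 28 passed with the deposited values.

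**Figure D2:**
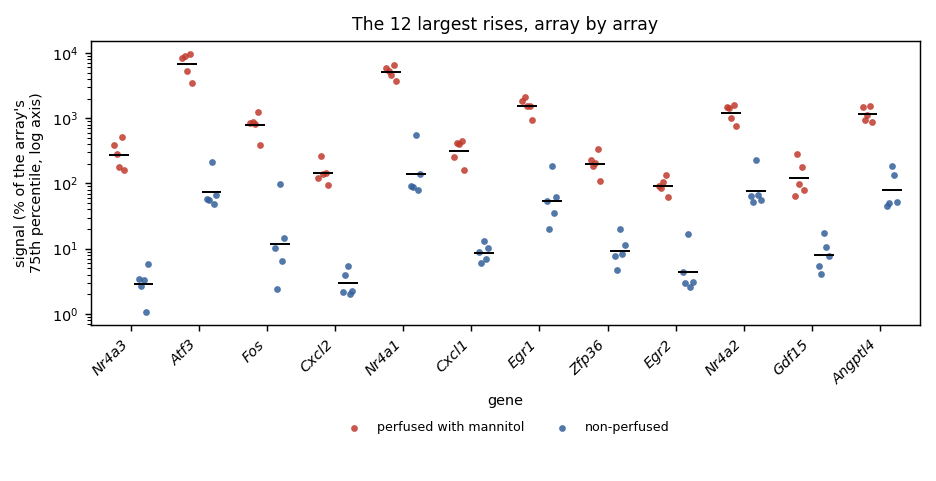
Signals of the 12 genes with the largest rises on a log axis, in percent of each array's 75th percentile. Points are arrays (5 mannitol-perfused on the left and 5 non-perfused on the right of each gene), and bars are means of the log2 values. All 12 were picked from genes with every perfused array above every non-perfused array.

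Promoter sequence was examined for these 12 genes in RefSeq's promoter windows on the GRCr8 rat genome, which run from 250 bases before to 50 bases after each gene's start. Windows of 9 of the 12 genes were in the table, and those of Nr4a3, Atf3 and Fos were not. The window of 3 of the 9 held the CArG box, against 1.64% of all 27457 promoters and 1.22% of those of tested genes. The window of 3 others held a site for NF-kappaB, against 7.60% and 9.36%. The short cAMP response element TGACG was in 5 of the 9, against 21.96% and 30.12%. The full element TGACGTCA, the AP-1 element TGANTCA, the EGR site GCGTGGGCG and the E-box CACGTG were in none. Both strands were searched. The 3 windows with a CArG box are shown with the box in capitals, because all 3 genes are among the 12 largest rises. Egr1 lies at chr18:26736828-26737127 on the plus strand and has a pair of boxes, which begin 105 and 83 bases before the start. Egr2 lies at chr20:21054392-21054691 on the minus strand with its box at 83 bases before the start. Zfp36, whose product binds and destroys cytokine messages, lies at chr1:92799059-92799358 on the minus strand with its box at 32 bases before the start.
Egr1: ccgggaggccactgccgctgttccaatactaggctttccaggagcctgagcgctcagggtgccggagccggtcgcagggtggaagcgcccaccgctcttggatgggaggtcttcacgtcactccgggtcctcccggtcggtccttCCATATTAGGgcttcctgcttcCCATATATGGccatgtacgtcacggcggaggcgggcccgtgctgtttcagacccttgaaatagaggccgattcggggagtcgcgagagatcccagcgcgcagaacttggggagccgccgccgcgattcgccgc
Egr2: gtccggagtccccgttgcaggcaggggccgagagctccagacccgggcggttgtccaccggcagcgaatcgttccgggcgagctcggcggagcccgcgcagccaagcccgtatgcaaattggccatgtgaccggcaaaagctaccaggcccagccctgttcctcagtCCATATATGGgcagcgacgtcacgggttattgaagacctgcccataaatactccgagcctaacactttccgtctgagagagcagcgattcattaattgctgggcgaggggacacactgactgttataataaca
Zfp36: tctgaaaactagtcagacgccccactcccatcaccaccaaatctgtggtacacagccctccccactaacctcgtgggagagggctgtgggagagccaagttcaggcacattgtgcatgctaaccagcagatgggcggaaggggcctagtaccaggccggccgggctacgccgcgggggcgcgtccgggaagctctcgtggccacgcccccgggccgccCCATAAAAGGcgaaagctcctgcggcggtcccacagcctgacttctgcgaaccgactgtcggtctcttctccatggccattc

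The windows with an NF-kappaB site belong to both neutrophil chemokine genes among the largest rises and to Nr4a1, with the site in capitals. Cxcl2 lies at chr14:17467206-17467505 on the minus strand, with a pair of overlapping matches that begin 74 and 73 bases before the start. Cxcl1 lies near it at chr14:17479272-17479571 on the minus strand, with an overlapping pair at 84 and 83 bases before the start. Nr4a1 lies at chr7:134259888-134260187 on the plus strand, with 1 match at 16 bases before the start.
Cxcl2: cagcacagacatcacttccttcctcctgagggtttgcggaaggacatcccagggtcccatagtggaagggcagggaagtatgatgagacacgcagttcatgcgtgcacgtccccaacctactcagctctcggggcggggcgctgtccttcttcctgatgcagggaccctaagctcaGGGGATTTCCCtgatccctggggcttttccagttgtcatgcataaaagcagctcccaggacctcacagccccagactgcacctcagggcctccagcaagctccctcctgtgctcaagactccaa
Cxcl1: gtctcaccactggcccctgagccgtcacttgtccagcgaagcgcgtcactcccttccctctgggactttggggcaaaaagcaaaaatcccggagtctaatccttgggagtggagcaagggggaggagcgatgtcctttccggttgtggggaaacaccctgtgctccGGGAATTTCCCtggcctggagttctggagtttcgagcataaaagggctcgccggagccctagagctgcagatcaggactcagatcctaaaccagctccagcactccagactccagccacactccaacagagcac
Nr4a1: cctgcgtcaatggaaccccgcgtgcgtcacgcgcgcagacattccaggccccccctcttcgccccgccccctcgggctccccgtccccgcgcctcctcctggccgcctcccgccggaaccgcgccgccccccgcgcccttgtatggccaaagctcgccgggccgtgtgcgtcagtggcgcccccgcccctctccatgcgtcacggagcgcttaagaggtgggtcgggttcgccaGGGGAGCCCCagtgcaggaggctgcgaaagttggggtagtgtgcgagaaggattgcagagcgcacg

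Over the wider set of 66 genes with a symbol that rose at least 4-fold, 51 had a window in the table. The short cAMP response element TGACG was in 52.94% of these 51, against 21.96% of all promoters and 30.12% of the 9289 tested genes with a window. The full cAMP response element TGACGTCA, which contains the short one, was in 9.80% of the 51, against 2.92% of tested genes. An NF-kappaB site was in 21.57% of them, against 9.36% of tested genes, and the CArG box in 7.84%, against 1.22%. The AP-1 element TGANTCA was in 11.76%, against 5.43%. Among the 438 genes that fell and had a window, the CArG box was in 0.23% and an NF-kappaB site in 6.39%. In the same 438 the short cAMP response element was in 30.59%, the full one in 3.42% and the AP-1 element in 3.42%. These are letters found in a window, not sites shown to be bound, and no test was made of them.

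Genes that restrain MAP kinase signalling were mostly higher. Of 9 tested dual-specificity phosphatase genes (10 on the list), whose products remove phosphate from MAP kinases, 6 rose and none fell, with a median change of 0.67. Dusp1 read 200, 193, 220, 234 and 138 in mannitol-perfused hearts, against 52.7, 27.8, 76.7, 43.1 and 51.8 in non-perfused hearts, a change of 2.02 (SE 0.24). Dusp14 rose by 1.41 (SE 0.16) and Dusp8 by 1.17 (SE 0.16). In the wider list of Ras and MAP kinase signalling, 10 of 18 tested members rose and none fell (median 0.83). Rasd1, a small GTPase related to Ras and known to be induced by glucocorticoids, rose 10.1-fold (3.33, SE 0.25), the regulator of G-protein signalling Rgs1 10.2-fold (3.35, SE 0.34) and the kinase gene Map3k8 3.15-fold. Errfi1, which inhibits the EGF receptor, read 407 to 868 in mannitol-perfused hearts and 101 to 203 in non-perfused hearts (1.96, SE 0.20). Every call in these 2 lists passed without any 1 of the arrays.

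Factors that shorten the life of messages or slow cell division rose in 9 of 11 cases. Zfp36 read 229, 188, 204, 332 and 110 in mannitol-perfused hearts, against 7.67, 4.73, 20.1, 8.25 and 11.4 in non-perfused hearts, a change of 4.43 (SE 0.32, 21.6-fold). The antiproliferative gene Btg2 read 3029, 3090, 2216, 4036 and 1922 in mannitol-perfused hearts, against 167, 177, 599, 213 and 277 in non-perfused hearts (3.45, SE 0.29). Zc3h12a, whose product cuts inflammatory messages, rose by 2.11 (SE 0.18), Tob2 by 0.93 (SE 0.14) and Btg1 by 0.87 (SE 0.09). The 1 fall, of Cnot4 (-0.20), ended with any of 8 arrays left out and with the deposited values.

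Chemokine genes rose in 8 of 19 tests and fell in none (median 0.16). The neutrophil attractant Cxcl2 read 123, 268, 137, 147 and 94.6 in mannitol-perfused hearts, against 2.19, 3.99, 5.46, 1.99 and 2.28 in non-perfused hearts, of which 3 were above background (5.62, SE 0.46, 49.3-fold). Its relative Cxcl1 read 251, 416, 406, 449 and 162 in mannitol-perfused hearts, against 8.89, 6.001, 13.1, 7.01 and 10.33 in non-perfused hearts (5.17, SE 0.39, 36.1-fold). The promoters of both are shown above. Monocyte attractants were the other large rises: Ccl3 changed by 3.65 (SE 0.33), Ccl2 by 3.41 (SE 0.31) and Ccl7 by 3.28 (SE 0.31).

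Among cytokines and their receptors, 9 of 23 tested members rose and none fell (median 0.39). Tnf, the founding member of its cytokine family, read 443, 598, 592, 353 and 420 in mannitol-perfused hearts, against 71.5, 78.0, 72.3, 62.7 and 97.7 in non-perfused hearts (2.64, SE 0.26, 6.23-fold). Il1b, the gene of interleukin-1 beta, read 79.3 to 137 in mannitol-perfused hearts and 7.83 to 17.4 in non-perfused hearts (3.07, SE 0.41). The signal of Il6 was low, 4.97 to 12.1 in mannitol-perfused hearts and 1.41 to 2.72 in non-perfused hearts, 2 of which were above background, and it rose by 1.94 (SE 0.31). Receptor genes rose too, with Tnfrsf12a up by 1.84 (SE 0.23) and the interleukin-4 receptor gene Il4r by 1.04 (SE 0.15). Socs3, which feeds back on cytokine receptors, rose by 2.15 (SE 0.24), and the serine kinase genes Pim1 and Pim3 of the same list rose by 1.34 (SE 0.25) and 1.25 (SE 0.21). That feedback list had 5 rises and no fall among 13 tested members.

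Of 18 genes on the NF-kappaB list 11 were tested, 6 rose and none fell (median 0.29). The inhibitor gene Nfkbie rose by 1.41 (SE 0.15), the cofactor gene Bcl3 by 1.67 (SE 0.20), the target gene Birc3 by 1.73 (SE 0.19), Nfkbia by 0.59 (SE 0.15) and the subunit gene Nfkb2 by 0.36 (SE 0.06). The call of Nfkb2 ended with the deposited values. Icam1, an endothelial adhesion molecule that holds leukocytes, read 246, 303, 338, 286 and 229 in mannitol-perfused hearts, against 62.0, 44.97, 68.7, 44.8 and 52.4 in non-perfused hearts (2.37, SE 0.18, 5.16-fold). It was 1 of 3 rises, with no fall, among 8 tested adhesion genes. Of 10 tested genes on the list of prostaglandin and nitric oxide enzymes 3 rose and 1 fell (median 0.15). The rises were Ptger4, a prostaglandin E2 receptor (1.64, SE 0.18), Gch1, which makes the cofactor of nitric oxide synthases (1.32, SE 0.16), and Nos3, the endothelial nitric oxide synthase (0.61, SE 0.08). Hpgd, which inactivates prostaglandins, fell by 0.85 (SE 0.26), a call that ended with some arrays left out and with the deposited values.

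Of 31 tested interferon genes 4 rose and none fell, with a median of -0.06. The regulator Irf1 read 752 to 1099 in mannitol-perfused hearts and 407 to 457 in non-perfused hearts (1.02, SE 0.18). The interferon-induced chemokine Cxcl10 rose by 1.499 (SE 0.38), a call that ended with the deposited values, and the other 2 rises ended with some arrays left out. Of 16 tested complement genes 1 rose, C5ar1, and its call ended with any of 8 arrays left out and with the deposited values.

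Stress-response lists split. In the integrated stress response, in which kinases that sense stress slow translation and Atf4 drives target genes, 7 of 22 tested members rose and none fell (median 0.37). Atf4 read 4230, 3704, 3978, 4787 and 3663 in mannitol-perfused hearts, against 1187, 1317, 1215, 1052 and 1359 in non-perfused hearts, a change of 1.73 (SE 0.09, adjusted p = 3.19e-13). Ddit3, the gene of the transcription factor CHOP, rose 4.44-fold (2.15, SE 0.12) and the phosphatase subunit gene Ppp1r15a 5.90-fold (2.56, SE 0.14). The stress hormone gene Gdf15 read 63.7, 286, 99.6, 180 and 79.0 in mannitol-perfused hearts, against 5.40, 4.13, 17.6, 10.8 and 7.75 in non-perfused hearts (3.92, SE 0.35, 15.1-fold), so that its perfused values spanned a wider range than those of Atf4. Aminoacyl-tRNA synthetase genes, which Atf4 is known to drive in amino acid shortage, had 1 rise among 20, Hars1 by 0.31, and that call ended with any of 7 arrays left out and with the deposited values.

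The unfolded protein response of the endoplasmic reticulum showed no rise among 17 tested genes, and 3 of them had a change above 0 (median -0.20). Dnajb11, a chaperone partner, fell by 0.26 (SE 0.06), a call that ended with the deposited values. Hspa5, the main chaperone of that compartment, chosen after its values were seen, read 1742 to 2119 in mannitol-perfused hearts and 1634 to 2198 in non-perfused hearts (-0.07, SE 0.12, adjusted p = 0.85). Heat shock genes rose in 8 of 18 tests, and 5 of the 8 passed without any 1 of the arrays. The co-chaperone genes Dnajb4 and Dnaja1 rose by 1.13 (SE 0.12) and 0.86 (SE 0.16) and the small heat shock gene Hspb1 by 0.85 (SE 0.18). Only 2 rises of the list passed with the deposited values, and that of Hspb1 did not.

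Both measured classical metallothioneins, small proteins that bind zinc, rose: Mt1 read 3385, 5224, 5603, 4500 and 3012 in mannitol-perfused hearts, against 1691, 1036, 1320, 1503 and 1818 in non-perfused hearts (1.55, SE 0.21), and Mt2A changed by 1.70 (SE 0.24). The other 7 tested members of that list, among them zinc transporters, did not pass. Of 20 tested genes of the NRF2 antioxidant response, 5 rose (median 0.10). Osgin1 rose 6.61-fold (2.72, SE 0.22) and Srxn1, which repairs peroxiredoxins, 2.12-fold (1.09, SE 0.24). Nfe2l2, the gene of NRF2 itself, and the glutathione synthesis gene Gclc rose by 0.57 (SE 0.11) and 0.55 (SE 0.09), and the calls of both ended with the deposited values.

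Growth arrest and apoptosis genes rose in 12 of 27 tests and fell in 1 (median 0.21). Gadd45b, a growth arrest gene, read 1302, 1539, 1523, 1816 and 1010 in mannitol-perfused hearts, against 241, 221, 233, 232 and 271 in non-perfused hearts (2.56, SE 0.14, adjusted p = 3.19e-13). The survival gene Mcl1 read 205 to 316 in mannitol-perfused hearts and 64.8 to 68.5 in non-perfused hearts (2.01, SE 0.15). The kinase gene Plk3 rose 12.6-fold (3.65, SE 0.28), Gadd45g 7.29-fold (2.87, SE 0.22) and Phlda1 2.67-fold. Of 26 tested genes of the cell cycle and DNA replication, 2 rose and 5 fell (median -0.29). The rises were those of the kinase gene Cdk2 (0.94, SE 0.13) and of Pcna, the sliding clamp of DNA polymerase (0.73, SE 0.15). Each of the 5 falls ended with at least 1 array left out, and none passed with the deposited values.

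Genes that glucocorticoids induce rose in 9 of 20 tests and fell in 2 (median 0.34). The kinase gene Sgk1 rose by 1.39 (SE 0.16) and the transcription factor gene Cebpd by 1.58 (SE 0.21). Ddit4, an inhibitor of growth signalling on the same list, went the other way, with 105 to 158 in mannitol-perfused hearts and 203 to 228 in non-perfused hearts (-0.60, SE 0.14). The sulfotransferase gene Sult1a1, the other fall of the list, fell by 0.84 (SE 0.20). The fall of Ddit4 did not pass with the deposited values, which called 8 rises and no fall in this list.

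Clock genes, which cycle through the day in the heart, rose in 6 of 16 tests and fell in none (median 0.54). Ciart, a repressor of the clock, read 46.9, 15.4, 46.4, 39.8 and 33.0 in mannitol-perfused hearts, against 28.7, 2.27, 0.968, 3.26 and 2.24 in non-perfused hearts, of which 2 were above background, and rose by 3.31 (SE 0.77). Per2 read 52.4, 27.1, 83.1, 54.5 and 80.6 in mannitol-perfused hearts, against 34.7, 10.8, 10.8, 16.1 and 13.1 in non-perfused hearts (1.85, SE 0.49). For both, non-perfused replicate 1 lay inside the perfused range and mannitol-perfused replicate 2 was the lowest of its group. The same arrays stood apart in 2 clock genes that were chosen after their values were seen. Dbp read 3610 in non-perfused replicate 1 and 504 to 723 in the other 4 non-perfused hearts. Bmal1, which runs opposite to Per2 in the day, read 38.0 in non-perfused replicate 1 and 121 to 156 in the other 4, and 79.1 in mannitol-perfused replicate 2, the highest of its group. Neither passed the test over all arrays (Dbp 1.37, SE 0.55, adjusted p = 0.141, and Bmal1 -2.08, SE 0.83, adjusted p = 0.135). Without non-perfused replicate 1 the change of Ciart was 4.08 and that of Per2 2.14. With the deposited values 2 genes of the list rose, and the calls of Per2, Cry2 and Nfil3 ended. The rise of Per1 ended with 1 array left out. Time of day is not given in the labels, and its part in these values was not tested. The helix-loop-helix repressor Bhlhe40 rose by 1.46 (SE 0.16) with no such array.

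Metabolic genes moved in a few members only. Angptl4, an inhibitor of lipoprotein lipase and a target of PPAR factors, read 1472, 931, 1117, 1529 and 871 in mannitol-perfused hearts, against 44.9, 50.04, 187, 135 and 52.7 in non-perfused hearts (3.88, SE 0.51, 14.7-fold). Pdk4, the kinase that closes pyruvate dehydrogenase, read 67.9 to 92.7 in mannitol-perfused hearts and 19.1 to 31.8 in non-perfused hearts (1.63, SE 0.23). Ucp2, a carrier of the inner mitochondrial membrane, fell, with 131, 93.6, 132, 78.5 and 87.6 in mannitol-perfused hearts, against 225, 220, 256, 294 and 105 in non-perfused hearts (-1.03, SE 0.24), and non-perfused replicate 5 lay inside the perfused range. The whole list of PPAR targets and fatty acid oxidation had 5 rises and 1 fall among 35 tested genes, with a median of 0.03, and 3 of the 5 rises ended with some arrays left out.

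In glucose uptake, glycolysis and pyruvate entry, 4 of 38 tested genes rose and none fell (median -0.02). The transporter gene Slc2a3 read 17.0, 13.7, 18.9, 14.6 and 17.4 in mannitol-perfused hearts, against 4.13, 4.34, 3.17, 3.10 and 3.20 in non-perfused hearts (2.19, SE 0.29, 4.57-fold). The transporter gene Slc2a1 and the muscle hexokinase gene Hk2, chosen after their values were seen, gave no call. Slc2a1 had a change of 0.12 (SE 0.17, adjusted p = 0.791) and Hk2 of 0.31 (SE 0.12, adjusted p = 0.119). Irs2, the adaptor of the insulin receptor, read 659, 588, 529, 840 and 520 in mannitol-perfused hearts, against 60.9, 43.6, 59.1, 65.3 and 59.9 in non-perfused hearts (3.43, SE 0.25, 10.8-fold). It was 1 of 2 rises, beside 1 fall, among 23 tested genes of insulin signalling and FOXO factors. The other rise was that of Trim63, a ubiquitin ligase of muscle wasting (0.41, SE 0.08), whose call ended with the deposited values.

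Insig1, which holds back sterol synthesis and is itself induced when sterols are short, rose, with 299 to 365 in mannitol-perfused hearts and 134 to 169 in non-perfused hearts (1.15, SE 0.10). In the list of sterol and lipogenic genes 3 of 22 tested members rose and none fell, and 1 rise passed with the deposited values. Among hypoxia targets 3 of 25 rose and 1 fell. The growth factor Vegfa rose by 0.93 (SE 0.12) and 3 other probes for it gave 0.34 to 0.67. Adm and Higd1a rose by 0.62 (SE 0.15) and 0.59 (SE 0.16), and their calls ended with the deposited values.

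Few genes of the energy-producing machinery were called. Of all genes tested 8.49% were called, so the shorter of these lists would hold few calls in any case. None of 18 tested genes of the tricarboxylic acid cycle passed, and the smallest p was that of Sdha (0.16, SE 0.08, adjusted p = 0.272). None of 12 tested genes for ketone bodies and propionate, the fuels of the buffer, passed either, and their changes ran from -0.14 to 0.17. Of 47 tested oxidative phosphorylation subunits 1 rose, Uqcrq of complex III, which read 1414, 1338, 1065, 1827 and 981 in mannitol-perfused hearts, against 406, 389, 533, 437 and 419 in non-perfused hearts (1.58, SE 0.19), while the median of the list was 0.00. Of 69 tested cytosolic ribosomal protein genes 1 fell, Rpl14 by 0.25, and its call ended with any of 8 arrays left out and with the deposited values. At this sample size, 44% of genes with a simulated log2 change of 0.5 were called and 82% of those with a change of 1. These shares are for the whole fit of 18333 genes, and the share for the lists in this paragraph was not tested. The simulation changed 50 genes at each size and called 169, against 1556 genes in the data, so its adjustment of p was stricter. Smaller changes in these lists may have been missed.

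**Figure D3:**
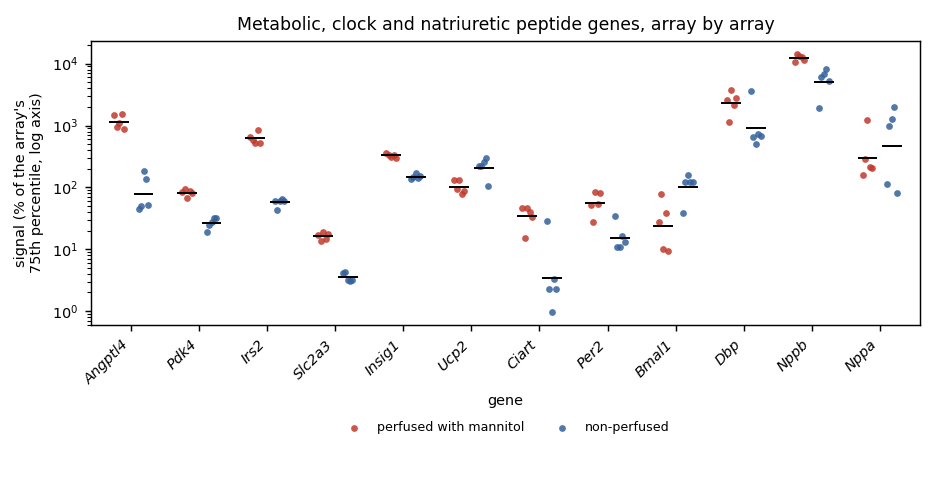
Signals of 12 metabolic, clock and natriuretic peptide genes on a log axis, in percent of each array's 75th percentile, with 5 mannitol-perfused arrays on the left and 5 non-perfused arrays on the right of each gene. Bars are means of the log2 values. The groups of Angptl4, Pdk4, Irs2, Slc2a3, Insig1 and Nppb do not overlap, and for Ciart, Per2, Bmal1 and Dbp 1 non-perfused array lies among the perfused ones.

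Few heart muscle genes passed the test. Of all genes tested 8.49% passed, so lists of this length would hold few calls in any case. All 16 cardiomyocyte markers were tested, none passed, and their changes ran from -0.08 to 0.20. Their summed signal ran from 554230 to 682700 in mannitol-perfused arrays and from 516050 to 727860 in non-perfused arrays. None of 24 tested calcium-cycling genes passed, and the smallest p was that of Trdn, which anchors the calcium release channel (-0.34, SE 0.12, adjusted p = 0.0971). Among sarcomere genes Lmod2, which lengthens thin filaments, rose, with 10202 to 11712 in mannitol-perfused hearts and 6046 to 6518 in non-perfused hearts (0.77, SE 0.10). Nppb, the gene of B-type natriuretic peptide, which stretched heart muscle releases, read 10490, 14520, 13516, 12741 and 11555 in mannitol-perfused hearts, against 1951, 6158, 6932, 8051 and 5233 in non-perfused hearts (1.29, SE 0.33). Non-perfused replicate 1 was far below its group, and without it the change was 0.94 with an adjusted p of 0.0523. Nppb was the 1 rise among 20 tested hypertrophy and stretch genes (5%, against 4.83% of all genes tested). Nppa, its atrial relative, chosen after its values were seen, overlapped widely, with 159 to 1244 in mannitol-perfused hearts and 82.6 to 1978 in non-perfused hearts.

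Channels and junctions gave 3 rises and 1 fall among 29 tested genes. The gap junction gene Gja5, known from atrial muscle, the conduction system and arterial endothelium, read 23.7, 18.4, 18.9, 13.2 and 18.4 in mannitol-perfused hearts, against 47.4, 47.8, 50.6, 46.3 and 43.1 in non-perfused hearts (-1.37, SE 0.22). Its relatives Gja4 and Gjc1 rose by 0.58 (SE 0.10) and 0.57 (SE 0.14). The other rise, of the channel gene Kcnip2 by 0.34, ended with any of 7 arrays left out. The calls of Gja5, Gjc1 and Kcnip2 ended with the deposited values. Of 14 tested atrial and conduction markers 2 fell, Gja5 and Dkk3, and the fall of Dkk3 ended with any of 7 arrays left out and with the deposited values. The anchoring protein gene Akap12 and the cAMP-responsive repressor Crem rose by 0.86 (SE 0.13) and 0.92 (SE 0.16), and the call of Crem ended with the deposited values. Adrenergic and cAMP genes gave 4 rises and 1 fall among 23 (17.4% and 4.35%).

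Endothelial genes rose in 8 of 28 tests and fell in none (median 0.12), and each of the 8 passed without any 1 of the arrays. Apold1, an endothelial early-response gene, read 371, 341, 388, 436 and 267 in mannitol-perfused hearts, against 21.1, 23.0, 61.4, 20.5 and 33.1 in non-perfused hearts (3.62, SE 0.31, 12.3-fold). The tight junction gene Cldn5 read 377 to 550 in mannitol-perfused hearts and 101 to 141 in non-perfused hearts (1.91, SE 0.13). The flow-responsive factors Klf4 and Klf2 rose by 1.91 (SE 0.15) and 1.48 (SE 0.13) and the VEGF receptor gene Flt1 by 0.71 (SE 0.09). General endothelial genes, chosen after their values were seen, did not pass: Cdh5 had a change of -0.01 (SE 0.14, adjusted p = 0.984) and Kdr of 0.04 (SE 0.11, adjusted p = 0.921).

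Secreted proteases and matricellular proteins rose in 9 of 26 tests and fell in 2 (median 0.16). Adamts1, a protease that cuts proteoglycans, read 3010, 3414, 2614, 3583 and 2310 in mannitol-perfused hearts, against 185, 257, 277, 193 and 219 in non-perfused hearts (3.72, SE 0.19, 13.2-fold). Ccn1, a secreted adhesion protein, rose 11.1-fold (3.48, SE 0.27), the urokinase receptor gene Plaur 3.13-fold and the plasminogen activator gene Plat 2.06-fold. Targets of BMP, TGF-beta and Notch had 9 rises and no fall among 20 tested (median 0.47), among them the repressor Tgif1 (1.38, SE 0.11) and the Notch target Hes1 (1.15, SE 0.20). Growth factors gave 9 rises and 2 falls among 29, led by Hbegf, a ligand of the EGF receptor (1.38, SE 0.18). With the deposited values 1 of these 9 rises passed.

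Splicing genes rose in 8 of 26 tests and fell in none (median 0.23). The kinase gene Clk1, which phosphorylates splicing factors, read 524 to 616 in mannitol-perfused hearts and 218 to 283 in non-perfused hearts (1.19, SE 0.12), and the splicing factor genes Srsf2 and Hnrnph1 rose by 0.74 (SE 0.08) and 0.59 (SE 0.08). Amino acid and ion carriers rose in 6 of 20 tests and fell in 1, led by Slc38a2 (1.00, SE 0.13) and the phosphate carrier gene Slc20a1 (0.96, SE 0.17). Ribosome biogenesis gave 1 rise and 4 falls among 36. The fall of Pes1 by 0.40 (SE 0.07) was the 1 call of that list that passed without any 1 of the arrays, and it ended with the deposited values.

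**Figure D4:**
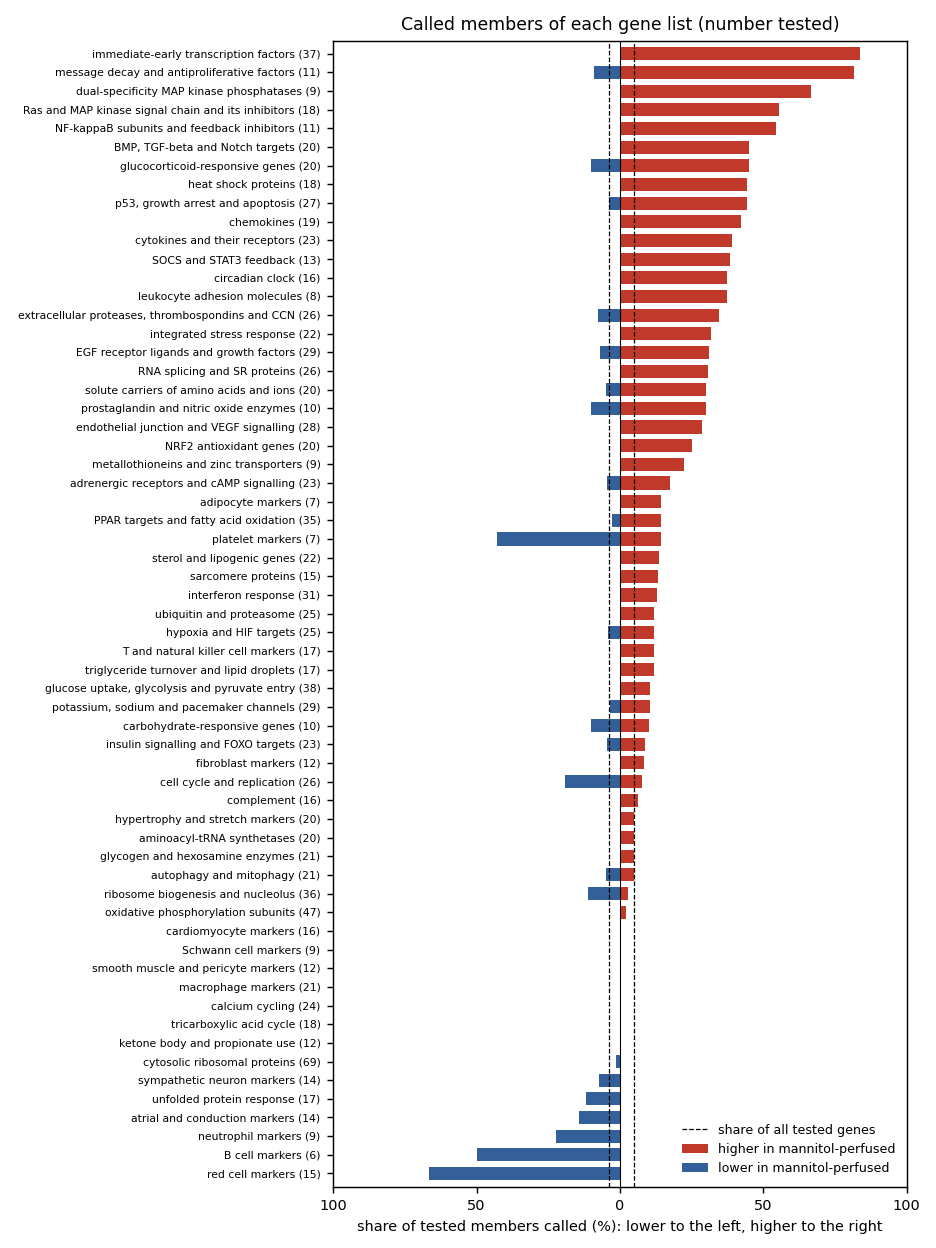
Each bar is 1 of 61 gene lists, with the number of tested members in brackets. Bars to the right give the share of members that were higher and bars to the left the share that were lower in mannitol-perfused hearts, and dashed lines mark the shares of all genes tested, 4.83% and 3.65%. Immediate-early transcription factors lie at the top and red cell markers at the bottom. The lists and their members were chosen with earlier results of these data known.

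The largest falls were in genes of red blood cells, which carry globin messages into any tissue that still holds blood. In bulk tissue, fewer cells of a type and less RNA per cell cannot be told apart. Of 29 red cell markers 15 were tested, 10 fell and none rose, and 6 fell with the deposited values. Hbb, a beta-globin gene, read 50.9, 77.1, 2324, 60.3 and 14.7 in mannitol-perfused hearts, against 15720, 18280, 18749, 20463 and 19557 in non-perfused hearts (-7.59, SE 0.95, adjusted p = 1.96e-06). The alpha-globin gene Hba-a1 read 733, 752, 5229, 975 and 637 in mannitol-perfused hearts, against 26816, 38362, 38429, 41583 and 32869 in non-perfused hearts (-4.97, SE 0.40). Mannitol-perfused replicate 3 was far above its group in both, and still below every non-perfused heart. Without it the changes were -8.74 for Hbb and -5.52 for Hba-a1.

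Mannitol-perfused replicate 3 was also the highest of its group for the other globin genes named here. The change of Hbb-bs was -8.21 (SE 1.01), that of Hbe2 -8.11 (SE 1.04) and that of Hbb-b1 -7.11 (SE 0.80). Globin genes are near copies of one another, so their probes may read each other's messages. Alas2, the first enzyme of heme synthesis in red cell precursors, read 3.55, 2.52, 15.8, 3.17 and 2.16 in mannitol-perfused hearts, against 107, 136, 148, 231 and 142 in non-perfused hearts (-5.23, SE 0.34). Bpgm, which sets the oxygen affinity of hemoglobin, fell by 0.83 (SE 0.14) and Ahsp, a chaperone of alpha-globin, by 1.55 (SE 0.28), both chosen after their values were seen, and neither passed with the deposited values. The summed signal of the tested red cell markers ran from 1614 to 11296 in mannitol-perfused arrays, with replicate 3 the highest, and from 61452 to 94135 in non-perfused arrays.

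Some markers of white cells that travel in blood fell too. S100a9, a calcium-binding protein of neutrophils, read 0.697, 0.768, 0.982, 1.06 and 0.557 in mannitol-perfused hearts, none of them well above background, against 19.2, 13.6, 22.1, 11.7 and 15.2 in non-perfused hearts. It fell at least 11.8-fold, taking for each perfused array the lowest signal called above background, or the probe's own signal where that was higher. Its partner S100a8 fell at least 4.70-fold. These were the 2 falls among 9 tested neutrophil markers of 20, and Lcn2, chosen after its values were seen, had 28.3 to 68.5 in mannitol-perfused hearts and 24.6 to 50.2 in non-perfused hearts (0.40, SE 0.31, adjusted p = 0.545). Cd52, a surface protein of lymphocytes, read 0.660, 0.750, 2.00, 1.16 and 2.03 in mannitol-perfused hearts, 2 of them above background, against 13.9, 14.3, 21.0, 28.5 and 17.4 in non-perfused hearts (-3.96, SE 0.62).

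Of 6 tested B cell markers 3 fell. Cd79b, a chain of the B cell receptor, fell at least 2.25-fold. Of 17 tested T and natural killer cell markers none fell and 2 rose, and each of the 2 rises ended with 1 array left out. Platelet markers gave 3 falls and 1 rise among 7 tested: the receptor gene Clec1b fell at least 4.79-fold, and Pf4 and Gp1bb fell by 0.54 (SE 0.12) and 0.37 (SE 0.09), calls that ended with the deposited values. The rise was that of Thbs1, which many cells make. None of 21 tested macrophage markers passed, and their summed signal ran from 5501.7 to 6183.4 in mannitol-perfused arrays and from 5416.3 to 6807.3 in non-perfused arrays.

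**Figure D5:**
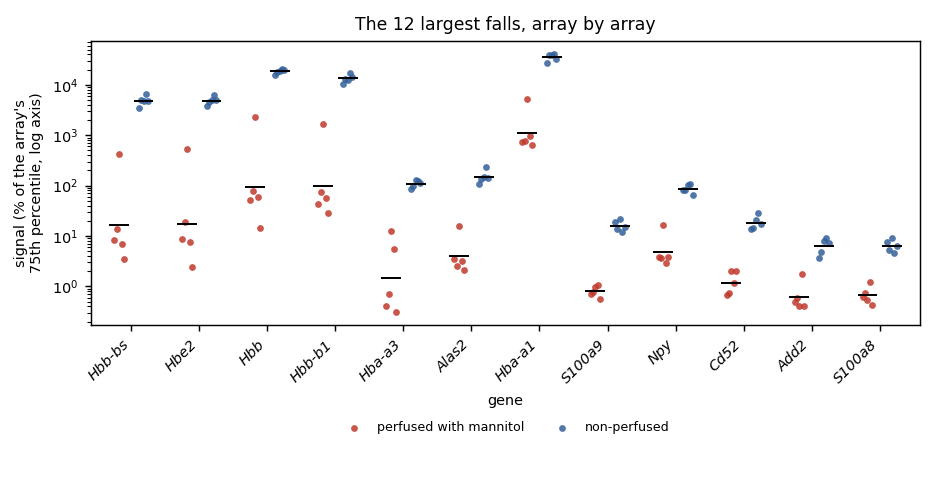
Signals of the 12 genes with the largest falls on a log axis, in percent of each array's 75th percentile, with 5 mannitol-perfused arrays on the left and 5 non-perfused arrays on the right of each gene. Bars are means of the log2 values. For the globin genes, Alas2 and Npy the highest perfused point is replicate 3. All 12 were picked from genes with every perfused array below every non-perfused one.

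Npy, the gene of neuropeptide Y, a transmitter stored with noradrenaline in sympathetic nerve endings, fell to 3.78, 3.58, 16.4, 2.93 and 3.76 in mannitol-perfused hearts, against 83.5, 80.01, 103, 107 and 64.3 in non-perfused hearts (-4.18, SE 0.41, 18.1-fold). A second probe gave -2.64. Mannitol-perfused replicate 3, the array with the most globin signal, was the highest of its group here too, and without it the change was -4.62. It was the 1 call among 14 tested sympathetic neuron markers, and the enzymes of noradrenaline synthesis, chosen after their values were seen, did not pass. Th read 167 to 272 in mannitol-perfused hearts and 133 to 295 in non-perfused hearts (0.09, SE 0.20, adjusted p = 0.889), and Dbh 25.1 to 32.5 in mannitol-perfused hearts and 17.3 to 40.6 in non-perfused hearts (-0.02, SE 0.19, adjusted p = 0.983). Schwann cell markers gave no call among 9 tested, smooth muscle and pericyte markers none among 12, and fibroblast markers 1 rise among 12, of the matrix gene Lum (0.54, SE 0.14), which ended with the deposited values. The part of blood cell content in the other falls was not tested.

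Small changes of little spread were also called. The dipeptidase gene Cndp2 rose by 0.46 (SE 0.07), the nuclear envelope gene Emd by 0.48 (SE 0.07) and the cell cycle inhibitor gene Cdkn1b by 0.40 (SE 0.06). Mfap3, named for microfibrils, read 66.4 to 78.5 in mannitol-perfused hearts and 92.6 to 104 in non-perfused hearts (-0.44, SE 0.06), the Mediator subunit gene Med19 fell by 0.38 (SE 0.06) and Trappc2b, of a vesicle tethering complex, by 0.47 (SE 0.07). All 6 ended with the deposited values, where these small changes did not reach the threshold.

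The response of chow hearts was set against that of sucrose-fed hearts, which shares no array with it and compares 5 mannitol-perfused with 5 non-perfused hearts after 8 to 10 weeks on that diet. Of the sucrose mannitol-perfused arrays 4 lay in slide row 2, and all sucrose non-perfused arrays lay in row 1, unlike the chow arrays. Of the 886 rises in chow hearts 658 were also called upward in sucrose hearts, where 2054 genes were called, and of the 670 falls 369 were also called downward. No gene was called in opposite directions. The difference between the responses was called by limma for 0 of 18333 genes, with 1131 (6.17%) at an unadjusted p under 0.05. The smallest p was that of Ctf1, the gene of the cytokine cardiotrophin, with a change of 0.14 in chow and -0.51 in sucrose hearts (difference 0.65, SE 0.13, adjusted p = 0.337). Angptl4 changed by 3.88 in chow and 2.46 in sucrose hearts, and Ucp2 by -1.03 and -0.08, with adjusted p of 0.812 and 0.754 for the differences.

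Mannitol-perfused chow hearts were also set against chow hearts perfused with 25 mmol/L glucose. All 5 mannitol arrays lay in slide row 1 and all 5 glucose arrays in row 2, so buffer and row cannot be told apart. limma called 0 of 18333 genes, with 715 (3.90%) at an unadjusted p under 0.05. The genes of smallest p were S1pr1, a receptor of endothelial cells (-0.42, SE 0.09), and Txnip, a glucose-induced inhibitor of thioredoxin (-0.85, SE 0.19), each with an adjusted p of 0.999. Against non-perfused hearts Txnip had a change of -0.22 (SE 0.19, adjusted p = 0.61), with 874 to 1018 in mannitol-perfused hearts and 682 to 1614 in non-perfused hearts.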

How the data were processed

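Each array held 1 heart's RNA in 1 colour. Per the file headers, the authors deposited Agilent Feature Extraction intensities, background-subtracted within each array. The submitters' processing notes name Agilent Feature Extraction 10.3, and the headers name 11.0.1.1. The array design's build is rn4. The authors also deposited log2 values, whose scaling between arrays is not given in the sources used here, and these served as an alternative.

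Here, the processed signal was averaged over the spots of a probe that were not flagged as outliers, or over all its spots where all were flagged. The array's 75th percentile of these means was then subtracted on the log2 scale. A probe was kept where at least 4 of the 5 arrays of some group had it well above background, and the brightest probe stood for a gene (18333 genes tested, 8452 removed). Symbols came from RefSeq by transcript accession for 60.4% of 30367 probes. limma 3.58.1 in R 4.3.3 was fitted to all 30 arrays as 6 groups, without replicate blocks, and p-values were Benjamini-Hochberg adjusted. In simulated data on 18333 genes, 50 genes were changed at each log2 size of 0.5, 1, 2 and 4. There 169 genes were called, 8 of them unchanged.

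The text names the 12 largest rises and falls without overlap, up to 5 called members of each list by adjusted p (the smallest p where none passed), 3 small changes in each direction and 5 genes for each of the diet and buffer comparisons, except a few that are not reported here. Members and lists were chosen with earlier results of these data known. Alternatives covered normalization, background, filter, probe choice, slide and replicate blocks, the groups fitted and each array left out.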

Additional observations from a re-analysis of the deposited data

Results flagged for a closer look

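For each gene named in the text and for both array-quality measures, the 5 arrays of a group were checked for 1 array that stood apart. The gap between the highest or lowest array and its nearest neighbour, on the log2 scale for genes, was divided by the range of the group and held against Dixon's critical value of 0.71. Of 340 such sets 31 passed. Chance alone flags about 1 in 20 sets, and genes of 1 array are not independent of each other. No explanation was tested.

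Mannitol-perfused replicate 3 stood apart most often in its group, as the highest array of 6 genes. Its ratios were 0.853 for Npy, 0.841 for Map3k8, 0.798 for Hba-a1, 0.763 for Hbb-b1, 0.750 for Alas2 and 0.715 for Hbb-bs, and 4 of the 6 are red cell genes. In the other mannitol-perfused arrays, replicate 4 was the highest for Flt1 (0.828), replicate 2 the lowest for Pim3 (0.820) and Dkk3 (0.738), replicate 1 the lowest for Dbh (0.797) and Ddit4 (0.760), and replicate 5 the lowest for Csrnp1 (0.740).

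Non-perfused replicate 3 was the highest array for Ccn1 (0.951), Nr4a2 (0.850), Atf3 (0.771), Hspb1 (0.719) and Egr2 (0.716), and the lowest for Rpl14 (0.891) and Hes1 (0.749). Non-perfused replicate 1 was the lowest for Bmal1 (0.819) and Nos3 (0.809) and the highest for Dbp (0.817). Non-perfused replicate 2 had the highest standard deviation of negative controls (0.947). It was also the highest for H1f4 (0.895) and Klf6 (0.763) and the lowest for Zc3h12a (0.867), Irs2 (0.754) and Dbh (0.714). Non-perfused replicate 4 was the highest for Slc20a1 (0.839) and the lowest for Ptx3 (0.805), and replicate 5 the lowest for Ucp2 (0.716).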

How the results depend on the processing

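The count of 1556 changed genes lay between 1241 and 2029 with another scaling, filter, probe rule, block or choice of groups, between 1290 and 1432 with each of the 10 arrays left out, and at 1430 without 4 arrays of noisy negative controls, an alternative chosen after seeing the data. It was 972 with normexp background correction on the median foreground followed by quantile normalization, of which 361 fell. It was 360 with the authors' deposited values, 311 upward and 49 downward, and 369 with a trended, robust variance on them, chosen after seeing the data, 319 upward and 50 downward. The causes were not tested. With the deposited values 78 named genes lost their call and none changed direction. The other 135 had the same result as here, a number that includes genes called in neither. The replicate block gave 1419 genes. Deviations of arrays with the same replicate number correlated by 0.0263 on average (from -0.132 to 0.295 over 5 pairs), too few pairs to exclude a pairing. Pairs of a mannitol-perfused and a non-perfused array on the same slide averaged 0.171 (6 pairs), against -0.053 on other slides (19 pairs). The main fit had no slide term. Slide as a fixed block gave 2029 genes and as a random block 1999. The difference between diets was called for 0 to 1 genes on leaving out an array, with the 1 gene called without sucrose non-perfused replicate 1. The share of probes above background differed by 1.29 percentage points over all arrays, by -0.2719 without mannitol-perfused replicate 3, by -3.467 without non-perfused replicate 2 and by at most 3.6 without any other array. The standard deviation of negative controls differed by 0.2475 without non-perfused replicate 2, against -2.02 over all arrays and at lowest -2.655 without replicate 5. Prpf38a, a splicing factor gene, had a change of -0.05 (from -0.08712 to 0.01134 on leaving out an array, the highest without mannitol-perfused replicate 4). Genes near background have the least certain changes, and 5 arrays a group leave changes under 0.5 often uncalled.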

Other observations

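The genes in this paragraph lie outside the gene lists and the naming rule and were chosen after their values were seen, for a rise or fall with no overlap between the arrays. Ifrd1, a transcriptional coregulator first found among interferon-related genes, read 1749, 1734, 1393, 1469 and 1281 in mannitol-perfused hearts, against 173, 166, 220, 166 and 190 in non-perfused hearts (3.06, SE 0.18, 8.32-fold). Ripk3, the kinase of necroptosis, read 129 to 166 in mannitol-perfused hearts and 20.9 to 28.8 in non-perfused hearts (2.55, SE 0.18). Slc25a25, a mitochondrial carrier of ATP and magnesium, rose by 2.03 (SE 0.15), Noct, a phosphatase of nicotinamide dinucleotides that cycles with the clock in many tissues, by 1.86 (SE 0.18), and Sat1, the first enzyme of polyamine breakdown, by 2.46 (SE 0.22). Ptx3, a secreted pattern recognition protein, rose by 3.07 (SE 0.38) at low signals of 12.6 to 21.0 in mannitol-perfused hearts and 0.677 to 2.62 in non-perfused hearts. Il16, the gene of a lymphocyte attractant, was among the falls, with 21.8 to 33.7 in mannitol-perfused hearts and 88.9 to 110 in non-perfused hearts (-1.79, SE 0.24).

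Some families were counted by the start of their symbols, also after values were seen and with no test. Of all tested genes with a symbol 5.85% rose and 4.73% fell. Of 146 tested zinc finger genes whose symbol begins with Zfp, 7 rose and 24 fell, and 68.5% had a change below 0, against 56.0% of all tested genes with a symbol. Of 27 tested linker and core histone genes 1 rose and 10 fell, with a median change of -0.30. The histone count took symbols that begin with H1f, H2a, H2b, H3c, H4c or Hist. It left out H3f3b and H3f4, which were both called. H1f4, a linker histone gene, read 22.7 to 46.8 in mannitol-perfused hearts and 74.2 to 165 in non-perfused hearts (-1.63, SE 0.22). Of 7 tested Gimap genes, GTPases of lymphocytes, none rose and 4 fell, among them Gimap1 with 107 to 156 in mannitol-perfused hearts and 246 to 294 in non-perfused hearts (-1.003, SE 0.12). Of 12 tested Krüppel-like factor genes 6 rose and none fell.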
